A study of Mus musculus with 8 samples.

Results

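Transcripts of 9 hedgehog pathway genes were followed in DCP1A-bound RNA and in input RNA of the mouse ovary. The genes were the ligand genes Dhh and Ihh, the receptor gene Ptch1, the signal transducer gene Smo, the transcription factor genes Gli1, Gli2 and Gli3, and the ligand-binding genes Hhip and Gas1. They were taken by name from the deposited gene table, which held 9 of these 9 names among 23107 genes, and the rule that picked them used no measured value, although earlier results of these data were known when the set was proposed. All 8 libraries came from ovarian cortex taken on postnatal day 8. They comprised 4 of input RNA and 4 of RNA recovered by RNA immunoprecipitation (RIP) with an antibody against DCP1A. The study asked for RNAs that associate with DCP1A in primary oocytes, although the libraries hold RNA of the whole cortex. DCP1A is a co-activator of mRNA decapping and a component of cytoplasmic processing bodies, where mRNA is stored or degraded. Nothing in the labels says whether the 4 libraries of a group stem from different mice or from pools, nor do they state a strain or genotype. The p-values therefore reflect only library-to-library spread, which could be technical. Without a control-antibody library in this comparison, specific binding and background binding cannot be told apart.

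Hedgehog ligands are secreted proteins that bind PTCH1, which holds SMO inactive in the absence of ligand. Released SMO signals through the primary cilium to the GLI proteins, of which GLI2 acts mainly as an activator, GLI3 mainly as a repressor, and GLI1 as an amplifier that is itself a target of the pathway. Ptch1 and Hhip are targets too, and their products take up ligand and so limit its spread. In the growing follicle, granulosa cells make DHH and IHH, and the surrounding stromal cells respond and give rise to the theca layer. Signals from the oocyte, GDF9 among them, are needed for this granulosa expression.

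Libraries held 13098154 to 25757620 counts. Levels are CPM, counts divided by a library size scaled by the TMM method, and fold changes are RIP over input on the log2 scale. The granulosa markers of a fixed list (13 genes, Foxl2 and Amh among them) summed to 1192 to 2789 CPM in input and 1506 to 2328 CPM in RIP. The 12 stroma markers summed to 5024 to 7307 CPM in input and 5033 to 8905 CPM in RIP, and the 15 oocyte markers to 3417 to 5025 and 3290 to 4446 CPM. As sums, markers of the cells that send the ligand and of those that receive it were thus present in all 8 libraries. The granulosa marker Cyp19a1 had 0 counts in input 2, and the stroma marker Thy1 had 0 counts in input 1 and input 2. The other granulosa and stroma markers had counts in every library, some of them few. Of the theca markers, some were at or near 0 and others were not. Cyp17a1, the androgen-forming enzyme of theca cells, had 0 counts in 5 libraries and at most 2.09 CPM, the luteinizing hormone receptor gene Lhcgr reached at most 2.47 CPM, and the theca hormone gene Insl3 at most 3.11 CPM. The steroid dehydrogenase gene Hsd3b1, in contrast, had 18.9 to 46.9 CPM, Nr5a1, a nuclear receptor gene that granulosa cells also express, had 39.8 to 249 CPM, and the cholesterol transport gene Star had counts in all 8 libraries (1.46 to 9.81 CPM). The 10 theca markers summed to 148 to 321 CPM in input and 203 to 313 CPM in RIP. Dhh is also a Schwann cell gene, but the Schwann cell markers Sox10 and Foxd3 had 0 counts in at least 4 of the 8 libraries each. In these bulk samples fewer cells of a type and less RNA per cell cannot be told apart.

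None of the 9 hedgehog genes differed between RIP and input past the threshold, and all 9 had passed the filter on low counts. The lowest adjusted p was 0.622, for Ihh, in edgeR's quasi-likelihood test adjusted after Benjamini and Hochberg. Of 14667 genes tested, 0 passed as higher and 6 as lower in RIP, which is 0.0409% of them. Without adjustment, 1090 of all genes tested had p under 0.05 (7.43%), 462 higher (3.15%) and 628 lower (4.28%), and among the 9 genes 1 was higher and 0 were lower. The fitted fold change was positive for 7 of the 9 genes and for 48.3% of all genes tested. The median log2 fold change was 0.25 for the 9 genes and -0.02 for all genes tested. Both groups of libraries overlapped for each of the 9 genes, while they did not overlap for 776 of all genes tested (5.29%).

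**Figure D1:**
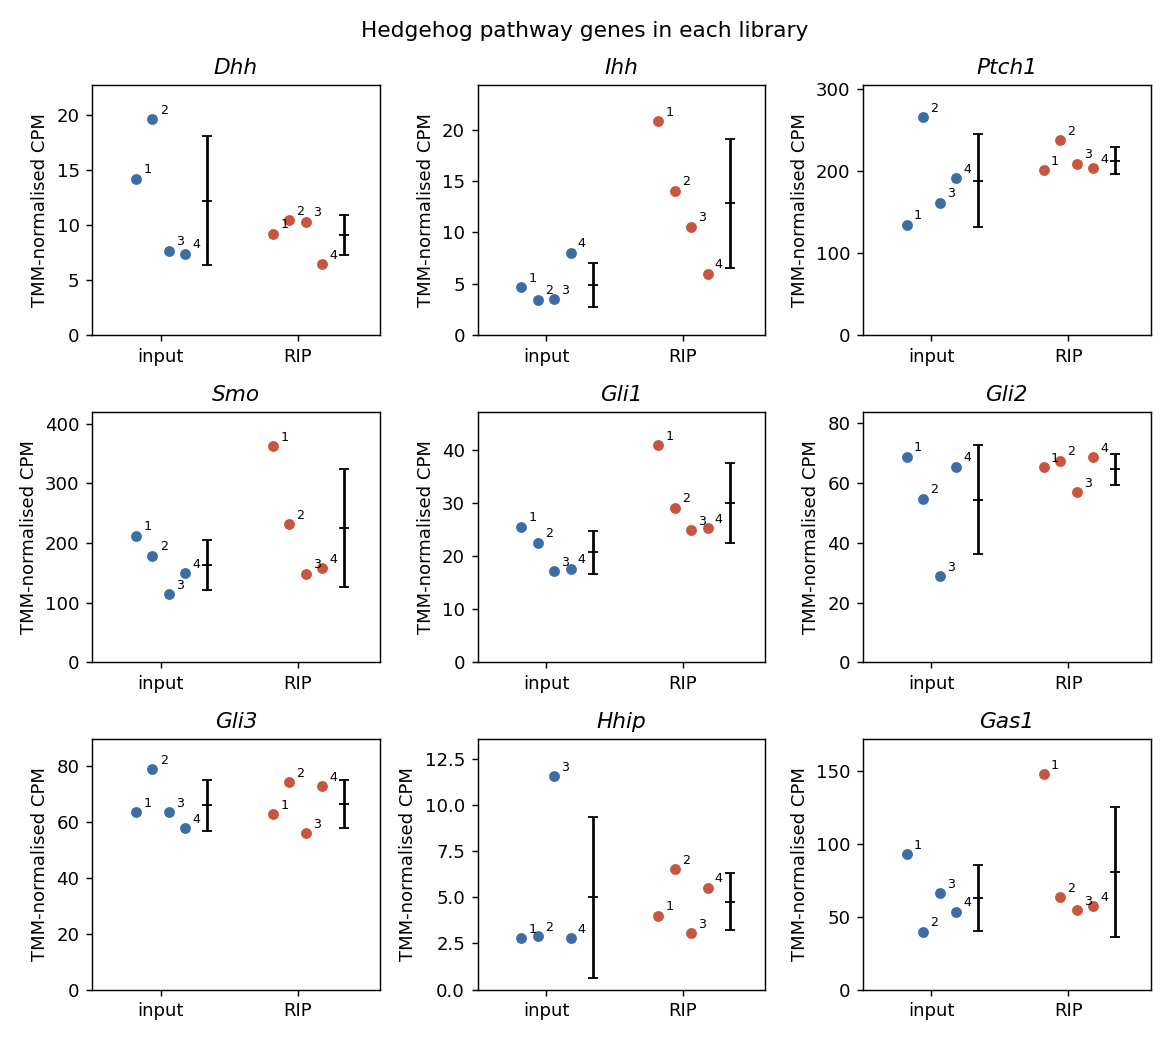
Level of each of the 9 hedgehog genes in TMM-normalised CPM (vertical axes, from 0) in 4 input libraries (blue) and 4 RIP libraries (red), numbered as labelled, with bars for the mean ± SD. The groups overlap in every panel, and RIP 1 is the highest of the 8 libraries for Ihh, Smo, Gli1 and Gas1.

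Of the 2 ligand genes, Ihh had the largest fitted difference of the 9 genes. Ihh (mm10 chromosome 1, 74945315 to 74951672) had 4.71, 3.48, 3.51 and 8.02 CPM in input libraries 1 to 4, from 41 to 220 counts. It had 20.8, 14.04, 10.5 and 5.99 CPM in RIP libraries 1 to 4, from 126 to 295 counts. RIP libraries 1 to 3 lay above all input libraries, and RIP 4 lay below input 4. The means were 4.93 ± 2.14 CPM in input and 12.9 ± 6.3 CPM in RIP (SD, n = 4 each). The log2 fold change was 1.38 ± 0.52 (SE, edgeR's quasi-likelihood test, unadjusted p = 0.0187, adjusted p = 0.622), with an approximate 95% interval for this gene alone of 0.26 to 2.49. Without RIP 1 the log2 fold change was 1.05 (edgeR unadjusted p = 0.0869), and without RIP 4, whose value lay lowest of its group, it was 1.62 (0.0097). By limma voom with sample weights it was 0.97 (unadjusted p = 0.112).

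Dhh, the ligand gene whose product is named desert hedgehog, had a negative fitted fold change. Dhh (chromosome 15, 98881615 to 98898562) had 14.2, 19.6, 7.66 and 7.40 CPM in input libraries 1 to 4 and 9.23, 10.4, 10.3 and 6.47 CPM in RIP libraries 1 to 4. Input libraries 1 and 2 were the highest of all 8, and input libraries 3 and 4 lay within the range of the RIP libraries. The means were 12.2 ± 5.8 and 9.11 ± 1.84 CPM (SD, n = 4 each), with a log2 fold change of -0.42 ± 0.46 (SE, edgeR adjusted p = 0.851, interval -1.39 to 0.55). It was -0.09 without input 2 and -0.05 by limma voom with sample weights. The summed level of the granulosa markers moved with Dhh among the inputs, but not every marker did. The granulosa sum was 2131 and 2789 CPM in input libraries 1 and 2 and 1192 and 1299 CPM in input libraries 3 and 4, and Foxl2, the granulosa identity factor, had 695, 747, 408 and 415 CPM in the same libraries. Kitl, the granulosa KIT ligand gene, had 93.5, 91.4, 108 and 64.3 CPM there, and the nuclear receptor gene Nr5a2 had 63.8, 148, 117 and 89.5 CPM. The stroma sum split the inputs in the same way as the granulosa sum, with 6971 and 7307 CPM against 5208 and 5024 CPM. Over the 8 libraries the Pearson correlation of log2 Dhh with the log2 granulosa sum was 0.773 (exact permutation p = 0.022, 0.142 after Benjamini-Hochberg adjustment over 27 relations) and Spearman's rho was 0.643 (exact permutation p = 0.0962, adjusted 0.371). Without input 2 and input 3, the libraries farthest from the median granulosa sum, r was 0.586. The correlation did not pass after adjustment. For Ihh the correlation with the granulosa sum was 0.159 (exact permutation p = 0.699, adjusted 0.744) and rho was 0.119 (exact permutation p = 0.793, adjusted 0.973), and r was 0.383 without the same libraries. Input libraries 1 and 2 were also the shallowest, with 13098154 and 13142790 counts against 25757620 and 25030604 for input libraries 3 and 4. Within numbers 1 and 2 the mean log2 difference of RIP from input was 2.05 for Ihh and -0.76 for Dhh, and within numbers 3 and 4 it was 0.57 and 0.12. The part of granulosa content, stroma content or depth in either ligand's difference was not tested.

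The ratio of Ihh to Dhh counts within a library does not depend on scaling. As log2, it was -1.59, -2.49, -1.13 and 0.12 in input libraries 1 to 4 and 1.17, 0.43, 0.03 and -0.11 in RIP libraries 1 to 4. RIP libraries 1 and 2 lay above all inputs, and input 4 lay above RIP 3 and RIP 4. The mean log2 ratio was -1.27 ± 1.09 in input and 0.38 ± 0.58 in RIP (SD, n = 4 each), a difference of 1.66 that did not pass an exact two-sided permutation test (p = 0.0857, where the smallest possible p is 0.0286). The difference ranged from 1.25 to 2.12 when each library was left out in turn, and without input 4 the exact permutation p was 0.0286, the smallest that remaining set allowed. This ratio was examined after the values of both genes had been seen. The third mammalian ligand gene, Shh, had 0 counts in 6 libraries, 5 counts in input 4 and 9 counts in RIP 3, and was not tested.

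**Figure D2:**
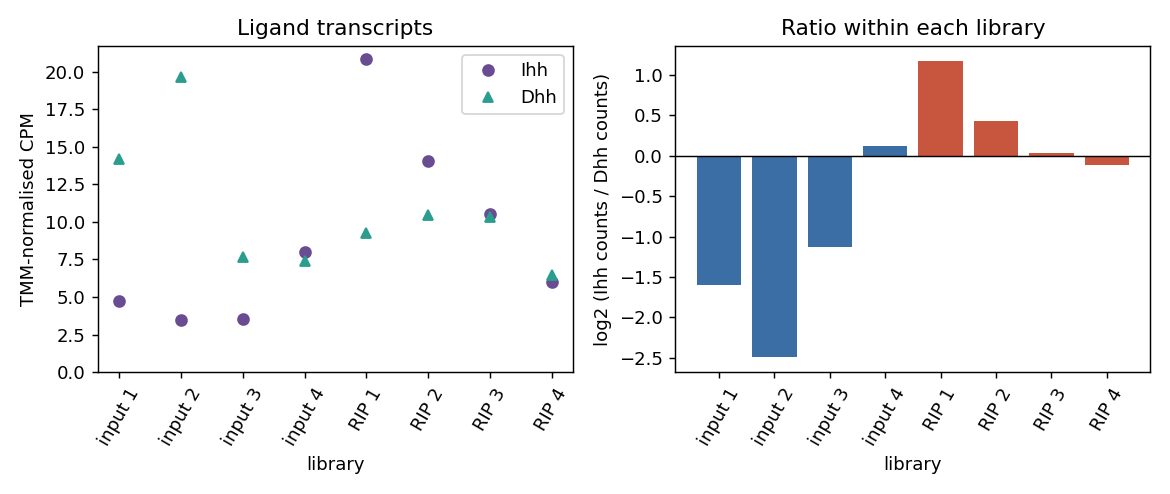
Left, TMM-normalised CPM of Ihh (circles) and Dhh (triangles) in each library. Right, log2 of the ratio of Ihh to Dhh counts within each library, from -2.49 in input 2 to 1.17 in RIP 1, with input 4 at 0.12 beside RIP 3 at 0.03.

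The receptor gene Ptch1 differed little between the groups, and its RIP libraries lay close together. Ptch1 (chromosome 13, 63508328 to 63573460) had 135, 265, 161 and 191 CPM in input libraries 1 to 4 and 201, 237, 209 and 203 CPM in RIP libraries 1 to 4. All RIP values lay within the range of the inputs. The means were 188 ± 56 and 213 ± 17 CPM (SD, n = 4 each), and the log2 fold change was 0.18 ± 0.24 (SE, edgeR adjusted p = 0.888). Its interval of -0.34 to 0.70 bounds the difference to less than a doubling in either direction at this depth, with 1604 to 5240 counts per library. Gas1, a cell surface co-receptor that binds hedgehog ligands (chromosome 13, 60174405 to 60177535), had 92.9, 39.8, 66.4 and 53.4 CPM in input and 148, 63.4, 54.7 and 57.3 CPM in RIP libraries 1 to 4. RIP 1 stood apart, and the other RIP libraries lay within the range of the inputs. The log2 fold change of Gas1 was 0.36 ± 0.35 (SE, edgeR adjusted p = 0.842), and without RIP 1 it was -0.11 (edgeR adjusted p = 1.00).

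Hhip encodes a membrane protein that binds and sequesters hedgehog ligands. Hhip (chromosome 8, 79965850 to 80058060) had 2.77, 2.89, 11.5 and 2.77 CPM in input libraries 1 to 4 and 3.99, 6.52, 3.05 and 5.51 CPM in RIP libraries 1 to 4. Input 3 was the highest of all libraries with 339 counts, and the other inputs lay below all RIP libraries with 33 to 76 counts. The log2 fold change was -0.07 ± 0.71 (SE, edgeR adjusted p = 0.986, interval -1.58 to 1.44), and without input 3 it was 0.77 ± 0.81 (edgeR adjusted p = 0.983). The sign of Hhip was not stable, and also turned without RIP 1 (0.01) or RIP 3 (0.10).

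Smo, which encodes the transducer that PTCH1 inhibits, followed RIP 1 as well. Smo (chromosome 6, 29735497 to 29761366) had 212, 179, 114 and 149 CPM in input libraries 1 to 4 and 362, 231, 148 and 158 CPM in RIP libraries 1 to 4. The RIP library lay above the input library of the same number for 4 of 4 numbers in Smo and Gli1. It did so for 3 numbers in Ihh, Ptch1, Gli2, Hhip and Gas1, and for 1 number in Dhh and Gli3. How many of all genes tested have this order was not counted, and the numbers are not known to be pairs. Smo in RIP 1 and RIP 2 was above all inputs, and in RIP 3 and RIP 4 it lay within the range of the inputs. The means were 163 ± 42 and 225 ± 99 CPM (SD, n = 4 each), and the log2 fold change was 0.46 ± 0.30 (SE, edgeR adjusted p = 0.750, interval -0.18 to 1.10), or 0.14 without RIP 1 (adjusted p = 1.00).

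Among the GLI genes, Gli1 came nearest to separate groups. Gli1, the amplifier and target of the pathway (chromosome 10, 127329882 to 127341579), had 25.5, 22.5, 17.1 and 17.6 CPM in input libraries 1 to 4 and 40.9, 29.1, 24.9 and 25.2 CPM in RIP libraries 1 to 4. Only input 1 exceeded any RIP library, namely RIP 3 and RIP 4, and as for Smo the RIP library was the higher one within 4 of 4 numbers. The means were 20.7 ± 4.0 and 30.0 ± 7.5 CPM (SD, n = 4 each), and the log2 fold change was 0.54 ± 0.32 (SE, edgeR adjusted p = 0.738, interval -0.14 to 1.21). It was 0.35 without RIP 1. With upper quartile scaling, or with library size alone, all RIP libraries were above all input libraries for Gli1, and 3.26% and 3.66% of all genes tested met that description under these scalings. The lower end of the Gli1 span overlaps the upper end of Arhgap9 (127321913 to 127329947), and how reads there were counted is not known.

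Gli2 (chromosome 1, 118834061 to 119054405) had 68.7, 54.7, 28.8 and 65.4 CPM in input and 65.2, 67.4, 56.9 and 68.6 CPM in RIP libraries 1 to 4. Input 3 was the lowest library, and all others lay between 54.7 and 68.7 CPM. The log2 fold change of Gli2 was 0.25 ± 0.29 (SE, edgeR adjusted p = 0.861). Gli3 (chromosome 13, 15463723 to 15730026) varied least of the 9 genes among the inputs, with 63.5, 78.9, 63.6 and 57.7 CPM in input and 62.8, 74.4, 56.0 and 72.8 CPM in RIP libraries 1 to 4. Its coefficient of variation was 13.7% in input and 13.0% in RIP, where Ptch1 (7.82%) and Gli2 (8.21%) varied less. The means were 65.9 ± 9.1 and 66.5 ± 8.7 CPM (SD, n = 4 each), and the log2 fold change was 0.01 ± 0.24 (SE, edgeR adjusted p = 0.992, interval -0.49 to 0.52).

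**Figure D3:**
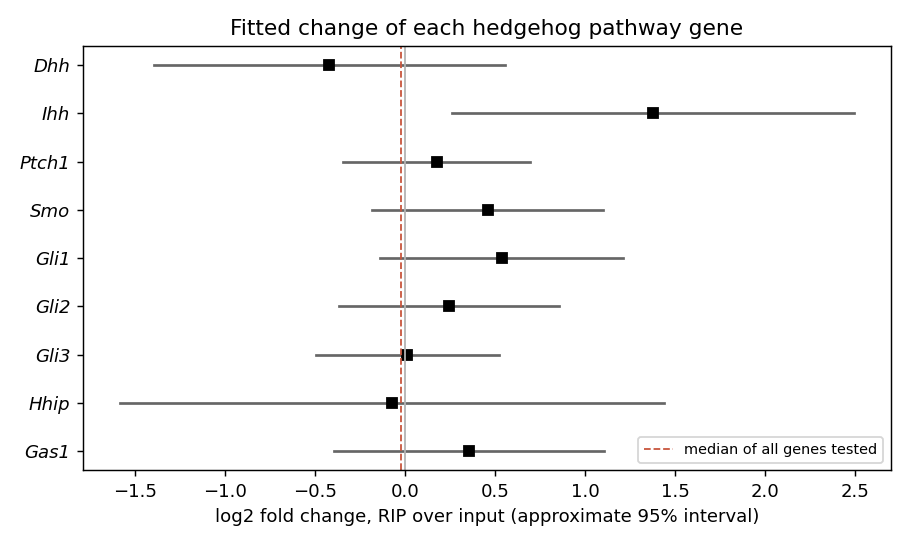
Fitted log2 fold change of RIP over input for each of the 9 genes (squares) with its approximate 95% interval for that gene alone (lines), and the median of all 14667 genes tested (dashed, -0.02). The interval of Ihh lies above 0 and those of the other genes include 0, and no gene passed after adjustment over all genes.

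The 9 genes did not vary as one block across libraries. RIP 1 was the highest of the 8 libraries for 4 genes (Ihh, Smo, Gli1 and Gas1), input 2 for 3 genes (Dhh, Ptch1 and Gli3), and input 3 the lowest for 3 genes (Smo, Gli1 and Gli2). Of the 36 pairs of genes, Smo and Gli1 correlated most closely over the 8 libraries, with r = 0.914 (exact permutation p = 0.00169, 0.061 after Benjamini-Hochberg adjustment over the 36 pairs) and Spearman's rho of 0.881 (exact permutation p = 0.00724, adjusted 0.261). Without input 3 and RIP 1, the libraries farthest from the median of Smo, r was 0.643. The stroma marker sum moved with this pair. It was 6971, 7307, 5208 and 5024 CPM in input libraries 1 to 4 and 8905, 6483, 5033 and 5632 CPM in RIP libraries 1 to 4, so that RIP 1 was highest there too. Collagen genes made up most of this sum, with RIP 1 highest for Col1a1 (2191 CPM), Col1a2 (2843 CPM) and Col3a1 (2678 CPM). Of the other stroma markers, Pdgfrb (129 CPM) and Tcf21 (54.6 CPM) were also highest in RIP 1, and the rest were not. Lum was lowest of the 8 libraries there (7.24 CPM), and Dcn (94.0 CPM) and Pdgfra (113 CPM) lay within the range of the inputs. The surface epithelium marker sum was also highest in RIP 1, at 200 CPM against 90.9 to 113 CPM in input. Its marker Krt19 was highest in RIP 1 (65.2 CPM), and so was Upk3b, though at 33.9 CPM beside 33.3 CPM in input 1. Krt8 was higher in RIP 2 (78.0 CPM) than in RIP 1 (72.6 CPM). Krt7 (5.76 CPM) and Krt18 (16.6 CPM) in RIP 1 lay within the range of the inputs. The correlation of the stroma sum with Smo was 0.885 (exact permutation p = 0.0038, adjusted 0.0519) and rho was 0.810 (exact permutation p = 0.0218, adjusted 0.147), with r = 0.851 without input 2 and RIP 1. The correlation of the stroma sum with Gli1 was 0.769 (exact permutation p = 0.0251, adjusted 0.142) and rho was 0.643 (exact permutation p = 0.0962, adjusted 0.371), with r = 0.662 without the same libraries. The part of stroma or surface epithelium content in the higher values of RIP 1 was not tested. Gas1 correlated negatively with the oocyte marker sum (r = -0.892, exact permutation p = 0.00236, adjusted 0.0519; rho -0.833, exact permutation p = 0.0154, adjusted 0.138; r = -0.831 without input 2 and RIP 1). None of these relations passed after adjustment. Groups of libraries with the same numbers hold 4 libraries or fewer, too few for a correlation within them.

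**Figure D4:**
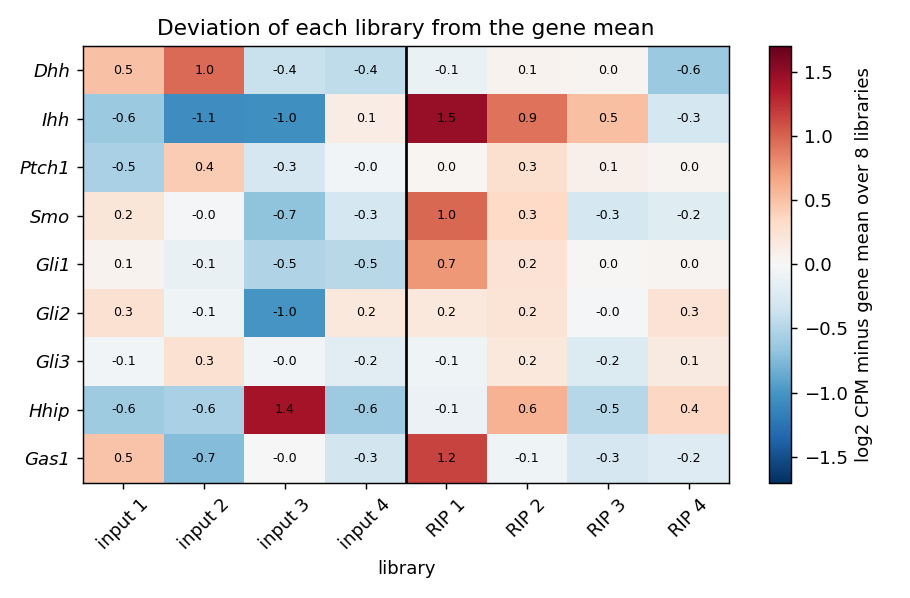
Log2 CPM of each gene in each library minus that gene's mean over the 8 libraries (colour and printed value). RIP 1 holds the highest value of Ihh, Smo, Gli1 and Gas1, and input 3 the highest of Hhip and the lowest of Smo, Gli1 and Gli2.

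The genes whose log2 CPM followed a member most closely over the 8 libraries were sought among genes of at least median level. For Gli1 these were Rapgef1 (r = 0.988), Sidt2 (0.988) and Ebf4 (0.985). For Ptch1 they were Stradb (0.976), Lass6 (0.954) and Afg3l1 (0.950), and for Dhh they were Bend3 (0.965), Eri3 (0.955) and Zfp746 (0.937). The candidates numbered 7333 for Gli1 and Ptch1 and 7334 for Dhh, and over 8 libraries that share scaling and depth these values are a description with no test.

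Other genes of the pathway were read from lists grouped by role. None of the 64 tested genes passed edgeR's test in either direction over all genes. Before adjustment 3 were higher and 3 lower with p under 0.05, and their median log2 fold change was -0.03. All RIP libraries lay above all input libraries for 6 of the 64 (9.38%) and below for 0, while over all genes tested 2.77% lay above and 2.52% below. These 6 were Evc, Kif7, Ulk3, Stk36, Scube1 and Scube3, and the same 6 genes were among those found with each of 3 other scalings. With those scalings 6 to 8 pathway genes and 2.68% to 3.66% of all genes tested had this order. Stk36 was named after its values were seen.

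Evc encodes a ciliary membrane protein that acts just downstream of SMO. It had 24.0, 21.1, 20.2 and 20.7 CPM in input and 42.5, 40.1, 42.5 and 34.8 CPM in RIP libraries 1 to 4, the clearest separation among the pathway genes described. Its log2 fold change was 0.89 ± 0.28 (SE, edgeR unadjusted p = 0.0054, adjusted p = 0.610). Kif7, a kinesin of the cilium tip that regulates GLI proteins, had 23.4, 21.6, 21.9 and 33.9 CPM in input and 50.8, 44.8, 38.4 and 35.4 CPM in RIP (log2 0.75 ± 0.29, edgeR adjusted p = 0.622). RIP 4 exceeded input 4 only narrowly. The kinase gene Ulk3, whose product acts on GLI proteins, was at 8.20 ± 1.06 and 17.1 ± 6.2 CPM (SD, n = 4 each; log2 1.06 ± 0.40, edgeR adjusted p = 0.622), and Stk36, the mouse relative of the fly kinase Fused, at 10.7 ± 1.5 and 18.7 ± 7.5 CPM (log2 0.80 ± 0.39, adjusted p = 0.681). RIP 1 held the highest value of both kinase genes. On the other side Cul3, a ubiquitin ligase scaffold that with SPOP turns over GLI proteins, was at 111 ± 64 and 54.1 ± 23.7 CPM (log2 -1.03 ± 0.40, edgeR adjusted p = 0.622), and input 3 alone held 206 CPM. Of the 22 tested genes for factors acting on SMO and GLI, 13 had a positive and 9 a negative fold change, with a median of 0.15 and 0 passing.

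Genes for ligand acylation, release and transport had a median log2 fold change of 0.50 over 6 tested genes, 4 of them positive and 0 passing. Scube3 and Scube1 encode secreted proteins of a family that helps carry hedgehog ligand. Scube1 had 31.4, 28.9, 28.2 and 37.2 CPM in input and 50.5, 45.6, 40.4 and 40.1 CPM in RIP libraries 1 to 4 (log2 0.49 ± 0.27, edgeR adjusted p = 0.713). Scube3 was at 15.5 ± 3.6 and 24.6 ± 4.0 CPM (SD, n = 4 each; log2 0.67 ± 0.34, adjusted p = 0.689). Scube2 of the same family had a negative fitted fold change with overlapping groups, at 19.5 ± 12.2 and 17.6 ± 3.1 CPM (log2 -0.16 ± 0.44, adjusted p = 0.950). Disp1, needed to release the lipid-bearing ligand, was at 57.2 ± 20.2 and 81.8 ± 10.6 CPM with overlapping groups (log2 0.51 ± 0.28, adjusted p = 0.713). The summed level of the 8 genes was 114 to 170 CPM in input and 169 to 200 CPM in RIP. Hhat, the ligand acyltransferase gene, was at 13.3 ± 5.8 and 19.0 ± 6.1 CPM.

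The other receptors and co-receptors had a median of 0.06 over 6 genes with 0 passing. The co-receptor gene Boc had a log2 fold change of 0.10 ± 0.29 (SE). Lrp2, a large endocytic receptor, had 0 to 146 counts in input and 71 to 110 in RIP. Gpc3, a glypican that competes for ligand, was at 96.4 ± 30.9 and 81.5 ± 10.2 CPM (SD, n = 4 each).

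Primary cilium genes had mostly negative fold changes, 18 of 24 tested, with a median of -0.19 and 0 passing, and 0 at an unadjusted p under 0.05. Ofd1, a centriole and cilium base gene, was at 94.0 ± 60.1 and 55.9 ± 19.3 CPM (SD, n = 4 each; log2 -0.75 ± 0.37, edgeR adjusted p = 0.684), and Ift88, an intraflagellar transport gene, at 21.7 ± 16.03 and 13.5 ± 3.4 CPM (log2 -0.68 ± 0.49). Input 3 was highest for both, with 183 CPM of Ofd1 and 41.7 CPM of Ift88. Positive fold changes on the log2 scale were fitted for Ift172, another intraflagellar transport gene (0.43 ± 0.29), and for the transition zone gene Tctn2 (0.40 ± 0.31).

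Among genes often reported as hedgehog targets, 3 of 8 tested were positive and 5 negative, with a median of -0.12 and 0 passing. Nr2f2, which encodes the stromal nuclear receptor COUP-TFII, had 142, 80.1, 192 and 149 CPM in input and 91.4, 77.7, 91.7 and 88.0 CPM in RIP libraries 1 to 4. RIP values lay together, and input 2 lay among them. Its log2 fold change was -0.69 ± 0.27 (SE, edgeR unadjusted p = 0.02, adjusted p = 0.622). The log2 fold change was -0.44 ± 0.29 for Sfrp1, a WNT antagonist gene, and -0.61 ± 0.50 for Ccnd1, a cyclin gene.

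**Figure D5:**
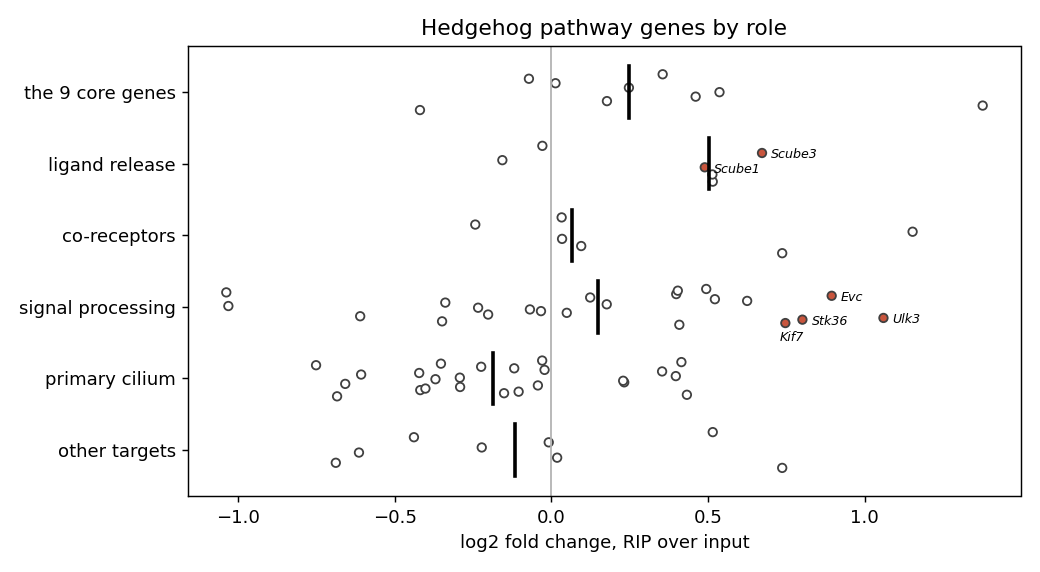
Fitted log2 fold change of RIP over input (horizontal axis) of each tested hedgehog pathway gene, grouped by role, with vertical bars at group medians. Filled and named points are genes with all RIP libraries above all input libraries, which are in the ligand release and signal processing groups, and none of the 9 core genes is among them.

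Summed over the 9 genes, the level was 619, 666, 474 and 553 CPM in input libraries 1 to 4 and 914, 733, 574 and 603 CPM in RIP libraries 1 to 4. The RIP mean exceeded the input mean by 128 CPM, or by 61.3 CPM without RIP 1, against SDs of 83.4 and 155 CPM, and the groups overlapped. Gdf9, the oocyte gene upstream of the ligands, had 161, 221, 122 and 111 CPM in input and 119, 267, 229 and 187 CPM in RIP libraries 1 to 4 (log2 0.39 ± 0.29, SE, edgeR adjusted p = 0.787).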

How the data were processed

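RIP used a Magna kit and libraries a SMARTer stranded Pico kit for total RNA, per the labels' protocols. The submitters' processing notes name mm10 as the build. For aligner, counting tool, annotation and strand setting, the answer is not given in the sources used here. The table deposited by the authors holds estimated counts (expected counts), of which at most 1.85% per library were not whole at a tolerance of 1e-09, and these were rounded. Coordinates come from RefSeq GRCm38.p6.

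RIP was compared with input by edgeR 4.0.16 in R 4.3.3 (TMM, filterByExpr with minimum count 10 and minimum total 15, robust quasi-likelihood fit, Benjamini-Hochberg over all 14667 genes, threshold 0.05). Standard errors are the log2 fold change over the square root of F, and intervals use the fit's degrees of freedom. DESeq2 1.42.0, limma 3.58.1 voom, other scalings and filters, blocks and leaving out each library were alternatives. The RIP-input fit was tested on simulated data of 14258 genes. It recovered 10 of 50 genes at 2-fold, 49 at 4-fold, 50 at 8-fold and 50 at 16-fold, and made 7 false calls. The genes given a change were drawn only from those of at least median mean CPM. These rates therefore do not cover genes of lower level. Dhh lay below the median in mean log2 CPM, and Ihh and Hhip were lower than Dhh by that measure.

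The members and lists were chosen with earlier results of these data known. Named genes were the 9 members, up to 4 genes of lowest p per other list, Foxl2, Amh, Gdf9 and Nr2f2 where a result turned on them, and the 3 genes with the highest Pearson r to Dhh, Gli1 and Ptch1 (log2 CPM, prior count 2). Shh, Stk36, Scube2 and further markers of the cell type lists were named after their values were seen. Some genes of the lists are not reported here. Level differences between genes were not compared, since transcript lengths were not used here. Amplified reads may not be independent molecules.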

Additional observations from a re-analysis of the deposited data

Results flagged for a closer look

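In 66 groups of 4 libraries examined, 7 had a library far from the others by Dixon's test at its 95% critical value. For independent, normally distributed values, chance alone gives this for about 1 group in 20. CPM values were not transformed here, the genes share the same libraries, and some were picked by lowest p. The count of 7 therefore cannot be set against that rate. Among the members, Hhip was at 11.5 CPM in input 3 against 2.77 to 2.89 CPM in the other inputs, and Gas1 was at 148 CPM in RIP 1 against 54.7 to 63.4 CPM in the other RIP libraries. Input 3 also stood apart for Cul3 (206 CPM, others 72.8 to 86.1) and Ofd1 (183 CPM, others 55.0 to 76.3). Kif7 was at 33.9 CPM in input 4 (others 21.6 to 23.4), Tctn2 at 31.3 CPM in input 1 (others 21.2 to 22.8) and Ift88 at 18.6 CPM in RIP 4 (others 11.5 to 12.3). What sets these libraries apart for these genes was not tested.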

How the results depend on the processing

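Of 153 fold changes of the 9 members under 17 alternatives each, 0 had an adjusted p under 0.05, and 6 members kept their sign in each alternative. With each library left out in turn, the log2 fold change ranged from -0.044 to 0.11 for Gli3 (below 0 without input 1, input 4, RIP 2 or RIP 4), from -0.11 (without RIP 1) to 0.60 for Gas1, and from -0.27 to 0.77 (without input 3) for Hhip. Hhip also turned to 0.12 with limma voom, 0.26 under the replicate block and 0.067 with numbers 1 and 2 against 3 and 4 as a block. The count of members and of other pathway genes passing was 0 under each alternative. Over all genes, the number passing was 55 with the replicate block (13 higher, 42 lower), 55 with the number groups as a block (12 and 43), 56 by DESeq2 (13 and 43), and 4 to 17 without 1 library (0 to 1 higher, 4 to 16 lower), with 15 without input 3 and 17 without RIP 1. The labels give no pairing beyond the shared number, so the numbers were not taken as pairs in the main fit. Same-numbered libraries correlated at 0.16, 0.09, 0.18 and 0.12 in their deviations from group means. Correlations of input with RIP libraries between numbers 1 or 2 and numbers 3 or 4 were all negative (-0.25 to -0.04). Within numbers 3 and 4 they were 0.12 to 0.27, and within numbers 1 and 2 they were -0.003 to 0.16. The lowest adjusted p of Ihh over alternatives was 0.282, with the number groups as a block. On simulated data 10 of 50 genes changed 2-fold were recovered, all of at least median mean CPM, which limits what can be called at this depth and spread. Recovery of genes of lower level was not simulated.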
